A study of Mus musculus with 6 samples.

Results

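The genes described here are 10 genes of insulin-FoxO signalling and of muscle atrophy, out of 29616 genes in the deposited table. They were chosen by name: *Irs1*, *Irs2* and *Pik3r1* of insulin signalling, the transcription factors *Foxo1*, *Foxo3* and *Foxo4*, the ubiquitin ligase genes *Fbxo32* and *Trim63*, and *Ddit4* and *Sesn1*, whose products restrain the growth kinase complex mTORC1. All 10 were found through their Ensembl identifiers, and all 10 passed the filter on low values. The data were RNA sequencing of bone cells from C57BL/6 mice, in 3 control libraries and 3 libraries of mice that received dexamethasone, a synthetic glucocorticoid. In the study's methods, the wild type mice were 8 weeks old when treatment began, and dexamethasone was given at 0.08 µg/g each day for 4 weeks. The legends name saline as the control of the treatment. The paper describes a sort for Osteocalcin-positive cells from femurs without marrow, while the labels say bone cells. Whether libraries were made from single mice or from pools is not given in the sources used here, so the spread between libraries may be partly technical. The libraries held 72596611 to 89910728 reads.

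Insulin and insulin-like growth factors act through receptors that phosphorylate the IRS adaptors, which recruit phosphoinositide 3-kinase (PI3K) and so activate the kinase AKT. Active AKT keeps FoxO factors out of the nucleus and, through mTORC1, favours protein synthesis. In skeletal muscle, glucocorticoids and fasting oppose this arm, and FoxO factors then drive the ubiquitin ligases atrogin-1 (*Fbxo32*) and MuRF1 (*Trim63*), while *Ddit4* is a classic glucocorticoid target. The pathway also acts in osteoblasts, where insulin and IGF1 signalling favours bone formation.

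The treatment and the cells were checked first. *Fkbp5*, which encodes a chaperone induced by the glucocorticoid receptor, had 1855 ± 37.3 (SD, n = 3) normalized counts in the control and 39489 ± 2584 (SD, n = 3) in the dexamethasone libraries, 4.41 higher on the log2 scale (limma adjusted p = 1.3e-29). Among the 8 osteoblast markers, all were present, 7 were lower and 1, *Spp1*, was higher with dexamethasone. The Osteocalcin gene *Bglap* had few transcripts, with 107 ± 12.9 (SD, n = 3) normalized counts in the control and 12.2 ± 2.8 (SD, n = 3) in the dexamethasone libraries. *Bglap2*, of the same marker list, had 324 ± 21.0 (SD, n = 3) in the control and 31.3 ± 2.17 (SD, n = 3) in the dexamethasone libraries. All 5 proliferation markers were higher with dexamethasone, their sum going from 28398 to 30391 normalized counts in the control libraries to 174509 to 187059 in the dexamethasone libraries. The sum of the 5 hematopoietic markers went from 92.3 to 129 in the control up to 775 to 823 in the dexamethasone libraries, led by *Itgb2* and *Cd53*. *Laptm5* (log2 fold change -1.49, limma adjusted p = 0.00235) and *Coro1a* (-1.77, limma adjusted p = 0.00307) of that list were lower, and *Ptprc*, the defining leukocyte marker, had means of 2.48 and 4.71. Summed markers of osteoclasts and macrophages went from 12919.9 to 13536 in the control down to 8190.5 to 8619 in the dexamethasone libraries, nearly all of it *Ctsk*. The 3 tested markers of that list were lower. *Acp5*, a further member under the filter on low values, went the other way, its mean rising from 0 to 18.3 normalized counts. Endothelial markers summed to 363 to 402 and 444 to 481 (*Cdh5* and *Tie1* at 3 reads or fewer), adipocyte markers to 9.79 to 10.5 and 17.4 to 22.9 (*Cidec* and *Lep* at 3 reads or fewer, *Cfd* with a higher mean, *Adipoq* and *Plin1* with lower means), and erythroid markers to 30.3 to 36.9 and 21.0 to 49.1 (*Hba-a1* at 3 reads or fewer), in the control and dexamethasone libraries respectively. The part of these shifts in the results was not tested. In bulk RNA, fewer cells of a type and less RNA per cell cannot be told apart.

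The start regions of *Irs1* and *Irs2* are printed because these paralogues moved in opposite directions, and that of *Trim63* because it is the textbook FoxO and glucocorticoid target of the group. RefSeq windows (GRCm38.p6) existed for 8 of the 10 genes, with 10 windows in all, and *Foxo4* and *Fbxo32* had none. Each sequence is the 250 bases before the annotated start, written 5′ to 3′ on the strand of the gene, with matches to the searched motifs in capitals. They lie at chr1:82291440-82291689 (minus strand) for *Irs1*, chr8:11008930-11009179 (minus strand) for *Irs2* and chr4:134314870-134315119 (plus strand) for *Trim63*. The bases after the start were found in the transcripts of *Trim63*, in the sense direction, but not in those of *Irs1* and *Irs2*. Strand and positions for *Irs1* and *Irs2* therefore rest on the RefSeq start alone.
Irs1: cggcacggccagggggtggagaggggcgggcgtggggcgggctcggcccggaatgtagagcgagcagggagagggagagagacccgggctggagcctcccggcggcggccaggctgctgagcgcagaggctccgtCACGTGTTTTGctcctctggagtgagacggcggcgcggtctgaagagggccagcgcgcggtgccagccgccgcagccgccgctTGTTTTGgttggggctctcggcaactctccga
Irs2: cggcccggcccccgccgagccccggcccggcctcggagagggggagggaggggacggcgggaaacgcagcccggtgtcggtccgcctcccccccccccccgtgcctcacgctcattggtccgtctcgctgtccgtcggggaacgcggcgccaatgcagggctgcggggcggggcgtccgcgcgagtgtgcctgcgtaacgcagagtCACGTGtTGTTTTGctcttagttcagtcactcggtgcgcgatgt
Trim63: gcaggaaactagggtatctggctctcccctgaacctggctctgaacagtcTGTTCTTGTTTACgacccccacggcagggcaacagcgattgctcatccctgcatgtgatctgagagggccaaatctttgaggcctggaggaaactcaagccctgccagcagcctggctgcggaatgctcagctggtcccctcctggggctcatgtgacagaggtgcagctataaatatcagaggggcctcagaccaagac

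The motifs were searched on both strands: GTAAACA (the FoxO site, TGTTTAC on the other strand), CAAAACA (the insulin response element, TGTTTTG on the other strand), AGAACA (a single arm of the glucocorticoid receptor site, TGTTCT on the other strand), the glucocorticoid receptor palindrome (AGAACA and TGTTCT with 3 free letters between) and CACGTG (the E-box). With the base before the start as position -1, the *Irs1* window held TGTTTTG at -111 to -105 and at -32 to -26, and CACGTG at -115 to -110, which overlaps the first TGTTTTG. *Irs2* had the same pair side by side, with CACGTG at -44 to -39 and TGTTTTG at -37 to -31. Among the windows of the whole table, 5.56% held CAAAACA and 6.02% held CACGTG on either strand. *Trim63* had TGTTTAC at -194 to -188, next to TGTTCT at -200 to -195, and these motifs stood in 3.17% and 16.1% of all 32851 windows. The windows of *Foxo1*, *Foxo3*, *Sesn1*, *Ddit4* and *Pik3r1* held none of the searched letters, and the whole palindrome was in 3 windows of the table. Only exact matches were counted. Around the single arm in *Trim63*, the printed letters match the palindrome in all but its first fixed letter, so that window is not among the 3. The share of windows with such near matches was not counted. A match describes letters only and is not evidence of binding.

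Of the 10 genes, 1 was differentially expressed, *Irs1*, which was lower with dexamethasone. Of all 17442 tested genes 22.3% were, 11.7% higher and 10.6% lower. A gene was called differentially expressed at a limma adjusted p-value under 0.05 (Benjamini-Hochberg over all tested genes) with a change of 1 or more, up or down, on the log2 scale. With the adjusted p-value alone, 7 of the 10 passed, 1 higher and 6 lower, beside 72.5% of all tested genes, 37.2% higher and 35.2% lower. The control and dexamethasone values did not overlap for 7 of the 10, 1 higher and 6 lower, beside 74.7% of all tested genes, 38.4% higher and 36.4% lower. In both directions together these shares of the 10 genes were near or under those of all genes, and the 6 lower genes are given 1 by 1 below, with no test over the group. On the log2 scale the median change was -0.33 over the 10 genes and 0.0007 over all tested genes.

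**Figure D1:**
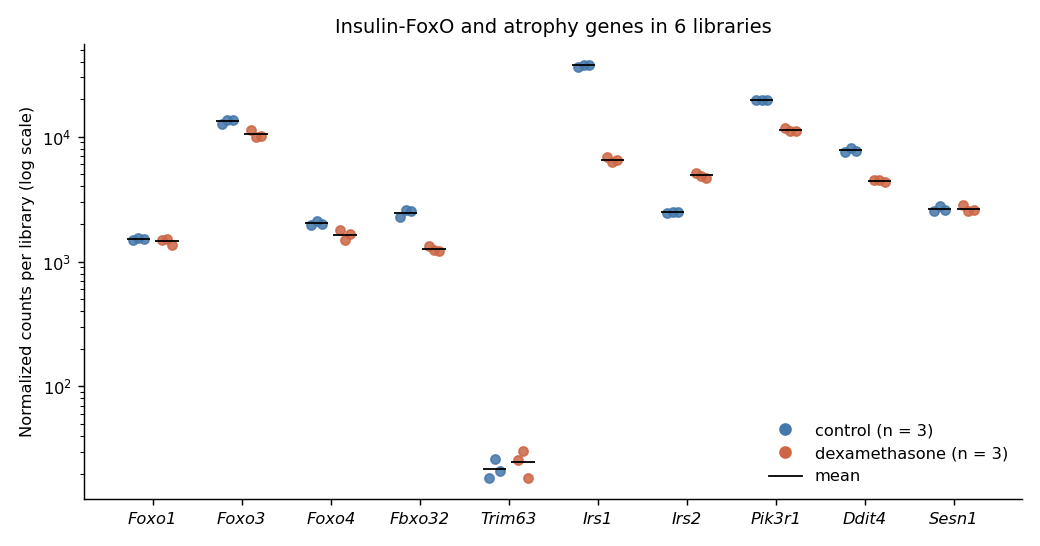
Normalized counts of the 10 genes in each library on a log axis, with control libraries in blue, dexamethasone libraries in orange and black bars for the mean of 3 libraries. The *Irs1* points fell from 36518 or more to 6824 or less, those of *Irs2* were higher with dexamethasone, and those of *Foxo1*, *Sesn1* and *Trim63* overlapped.

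The insulin receptor substrates moved in opposite directions. *Irs1*, the adaptor with the larger share in control cells, stood at 36518, 37828 and 37422 normalized counts in the control libraries (replicates 1, 2 and 3, an order kept below), and at 6824, 6291 and 6562 in the dexamethasone libraries. All 3 dexamethasone libraries were far under the lowest control. The mean fell by 82.4%, from 37256 ± 671 (SD, n = 3) to 6559 ± 267 (SD, n = 3), which is -2.51 on the log2 scale (standard error 0.0365, 95% interval -2.58 to -2.43, limma adjusted p = 4.33e-26). Among all tested genes, 1.39% had a lower fold change. In the GENCODE M21 annotation, 30.9% of the *Irs1* exon bases are overlapped by *Gm9747* on the opposite strand, a gene with no row in the table, and the strand setting of the count is not given in the sources used here.

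*Irs2*, the paralogue that serves insulin action in liver and beta cells, had 2471, 2478 and 2488 normalized counts in the control and 5134, 4857 and 4696 in the dexamethasone libraries. The groups lay far apart, and the control libraries were almost alike. The log2 fold change was 0.98 (95% interval 0.90 to 1.06, limma adjusted p = 5.99e-17), just under the cut-off of 1, and without dexamethasone replicate 3 it was 1.01. It was farther under the cut-off with libraries rescaled to the same total (0.87) and after quantile normalization (0.82). In the table, 983 genes that passed the adjusted p-value had a log2 fold change of 0.9 to 1.1 in size, so that *Irs2* and *Fbxo32* sat in a well filled range around the cut-off.

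Within each library, the log2 ratio of *Irs1* to *Irs2* counts was 3.89, 3.93 and 3.91 in the control and 0.41, 0.37 and 0.48 in the dexamethasone libraries. The ratio was 11.2-fold lower with dexamethasone and does not depend on how libraries are scaled. With 3 against 3 libraries an exact permutation test cannot give a p-value under 0.1, and it gave 0.1 here (2-sided, 0.12 after adjustment over 6 pairs). Per kb of exon, the sum of both genes was 4466 ± 74.2 (SD, n = 3) normalized counts in the control and 1492 ± 57.8 (SD, n = 3) in the dexamethasone libraries, a sum formed after the values were seen. *Irs1* made up 91.2% of that sum in the control and 48.1% in the dexamethasone libraries.

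*Pik3r1*, which encodes the PI3K regulatory subunits p85α, p55α and p50α, had 19661, 19675 and 19596 normalized counts in the control and 11838, 11097 and 11187 in the dexamethasone libraries. Every dexamethasone library was lower than every control. The mean was lower by 42.1%, a log2 fold change of -0.79 (95% interval -0.86 to -0.72, limma adjusted p = 3.33e-16), under the cut-off. Over 17 alternatives of the processing *Pik3r1* ranged from -0.98 to -0.77 and was not called in any. Its paralogues differed from it and from each other: *Pik3r2* had a log2 fold change of 0.24 and *Pik3r3* of -2.45. Summed per kb, the 3 regulatory genes went from 4932 ± 121 to 3842 ± 168 (SD, n = 3 in each group), and the share of *Pik3r1* from 39.5% to 29.4%, while that of *Pik3r2* went from 43.9% to 66.7%.

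**Figure D2:**
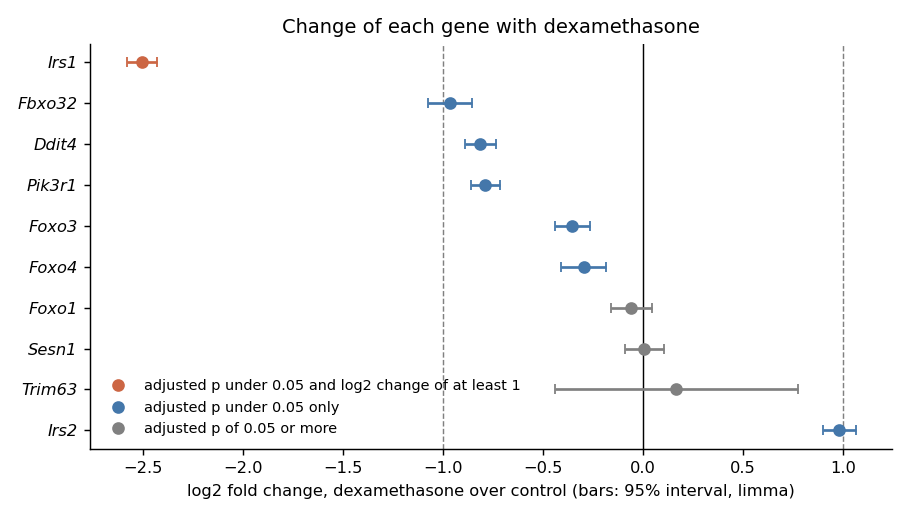
Log2 fold change of each gene, dexamethasone over control, with its 95% interval from limma, and dashed lines at the cut-offs of -1 and 1. *Irs1* (-2.51) lies beyond the cut-off, *Fbxo32* (-0.97) and *Irs2* (0.98) lie just inside it, and the intervals of *Foxo1*, *Sesn1* and *Trim63* cross 0.

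Of the FoxO factors, *Foxo3* and *Foxo4* were lower with dexamethasone, while for *Foxo1* no difference passed the test. *Foxo3*, the most abundant of them, had 12752, 13717 and 13529 normalized counts in the control and 11270.3, 10013 and 10060.4 in the dexamethasone libraries. The groups did not overlap, and the mean was lower by 21.6%, a log2 fold change of -0.35 (95% interval -0.44 to -0.27, limma adjusted p = 6.25e-08). *Foxo4*, an X-linked paralogue, had 1971, 2108 and 1983 in the control and 1789, 1488 and 1666 in the dexamethasone libraries, with no overlap and a log2 fold change of -0.30 (95% interval -0.41 to -0.18, limma adjusted p = 3.76e-05). Both changes were far under the cut-off of 1.

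*Foxo1*, the paralogue best known for glucose production in the liver and for its role in osteoblasts, had 1502, 1549.95 and 1506 normalized counts in the control and 1501, 1515 and 1365 in the dexamethasone libraries. The groups overlapped, with 1 dexamethasone library above 2 of the controls. The log2 fold change was -0.06 (95% interval -0.16 to 0.05, limma adjusted p = 0.306). When libraries were rescaled to the same total, which moved the median of all tested genes by -0.11, *Foxo1* was at -0.17 (limma adjusted p = 0.00324), and after quantile normalization, which moved that median by -0.07, at -0.20 (limma adjusted p = 0.000561).

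The ratios within libraries set these paralogues against each other. The log2 ratio of *Foxo1* to *Foxo3* was -3.08, -3.14 and -3.17 in the control and -2.91, -2.72 and -2.88 in the dexamethasone libraries, higher by 0.29 with no overlap (exact permutation p = 0.1, the smallest possible, adjusted 0.12). That of *Foxo1* to *Foxo4* was higher by 0.24, again with no overlap (exact permutation p = 0.1, adjusted 0.12), whereas that of *Foxo3* to *Foxo4* differed by -0.06 and the groups overlapped (exact permutation p = 0.4). Per kb of exon, the 3 FoxO genes summed to 2516 ± 86.9 (SD, n = 3) in the control and 2021 ± 135 (SD, n = 3) normalized counts in the dexamethasone libraries, 19.7% lower with no overlap (exact permutation p = 0.1). *Foxo3* held 70.0% of the sum in the control and 68.3% in the dexamethasone libraries, *Foxo4* 23.0% and 23.4%, and *Foxo1* 6.97% and 8.36%.

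**Figure D3:**
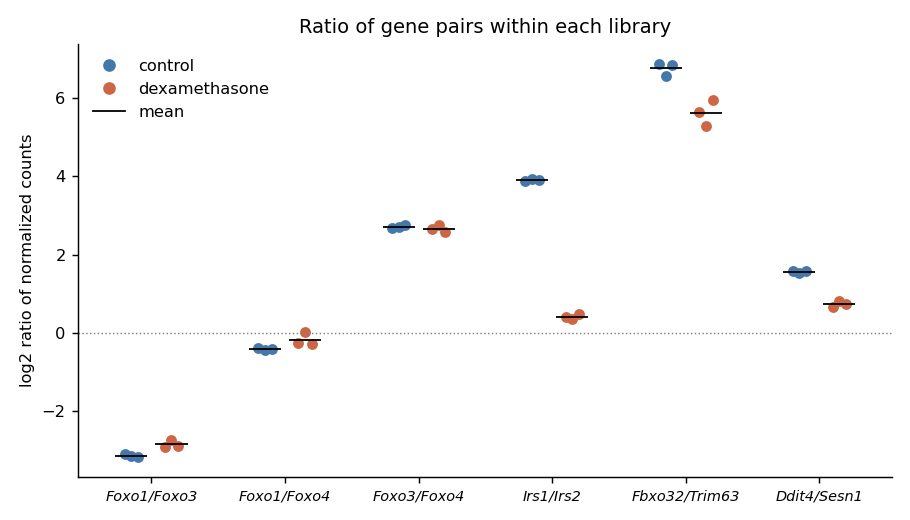
Log2 ratio of the normalized counts of 6 gene pairs within each library, with control in blue, dexamethasone in orange and black bars for the means. The *Irs1* to *Irs2* ratio fell by the most, from about 3.91 to 0.42, and the *Foxo3* to *Foxo4* ratio overlapped between groups.

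The atrophy ligases did not move together. *Fbxo32*, which encodes the F-box protein atrogin-1, had 2278, 2581 and 2547 normalized counts in the control and 1331, 1238 and 1219.8 in the dexamethasone libraries. The mean was lower by 48.8% with no overlap, a log2 fold change of -0.97 (95% interval -1.07 to -0.86, limma adjusted p = 1.73e-14). This fell just short of the cut-off, and *Fbxo32* was called at the same total (-1.08), after quantile normalization (-1.09), without control replicate 1 (-1.02) and without dexamethasone replicate 1 (-1.003).

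*Trim63*, which encodes the RING-finger ligase MuRF1, was close to the bottom of the tested range, with 20, 27 and 24 reads in the control and 27, 28 and 16 reads in the dexamethasone libraries. In normalized counts these were 18.4, 26.4 and 21.1 against 25.8, 30.5 and 18.6, and the groups overlapped. The log2 fold change was 0.17 with a wide 95% interval of -0.44 to 0.77 (limma adjusted p = 0.626), so that at this depth a change of this size was not detectable. The within-library log2 ratio of *Fbxo32* to *Trim63* was lower by 1.13 with dexamethasone and did not overlap (exact permutation p = 0.1, adjusted 0.12).

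As both ligases are known from muscle, the muscle markers are given beside them. Of 17 skeletal muscle markers 12 had a row, and their sum was 931 to 1017 normalized counts in the control and 995 to 1086 in the dexamethasone libraries. *Des* (desmin) and *Ttn* (titin) led the sum, *Myh4* and *Myl1* had at most 3 reads in any library, and *Myh1*, *Myh2*, *Myod1*, *Myog* and *Pvalb* had no row. *Acta1*, at 28.1 and 9.28 normalized counts, was the called marker of the list (log2 fold change -1.56, limma adjusted p = 0.000435), and *Atp2a1* was at -0.70 (limma adjusted p = 0.0126). *Des* went the other way, at 0.17 with no overlap (limma adjusted p = 0.0257). The other 4 of 7 tested markers did not pass the adjusted p-value. The 5 smooth muscle markers summed to 145343 to 153343 in the control and to 18660.2 to 19739 in the dexamethasone libraries. *Acta2* (log2 fold change -3.54) led the sum, while *Smtn* was at 0.51 (limma adjusted p = 1.18e-10) and *Tagln* at 0.06. *Myh11*, at 44.2 and 24.8 normalized counts, was at -0.89 (limma adjusted p = 0.0102), and its groups overlapped. Their part in the level of *Fbxo32* was not tested.

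The mTORC1 inhibitors also differed. *Ddit4*, which encodes REDD1, an inhibitor of mTORC1 induced by stress and by glucocorticoids in other tissues, had 7568, 8118 and 7762 normalized counts in the control and 4478, 4491 and 4369.7 in the dexamethasone libraries. It was lower by 43.1% with no overlap, a log2 fold change of -0.81 (95% interval -0.89 to -0.74, limma adjusted p = 4.77e-16), under the cut-off. Over 17 alternatives of the processing *Ddit4* ranged from -0.999 to -0.79, which reaches almost to the cut-off, and was not called in any. *Sesn1*, which encodes sestrin 1, a p53 and FoxO target that restrains mTORC1 through the amino acid sensing complex, had 2526, 2800.5 and 2589 in the control and 2815, 2531 and 2605 in the dexamethasone libraries. These values interleaved, and the log2 fold change was 0.01 (95% interval -0.09 to 0.10, limma adjusted p = 0.911). At the same total it was -0.11 (limma adjusted p = 0.017) and after quantile normalization -0.15 (limma adjusted p = 0.00182).

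The log2 ratio of *Ddit4* to *Sesn1* within libraries was 1.58, 1.54 and 1.58 in the control and 0.67, 0.83 and 0.75 in the dexamethasone libraries, lower by 0.82 (exact permutation p = 0.1, adjusted 0.12). Sestrins 2 and 3 are the paralogues of *Sesn1*, and their genes had log2 fold changes of -0.89 (*Sesn2*) and -1.30 (*Sesn3*). Summed per kb, the sestrin genes went from 5694 ± 107 to 3129 ± 116 normalized counts (SD, n = 3 in each group), and the share of *Sesn1* from 11.6% to 21.3%.

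**Figure D4:**
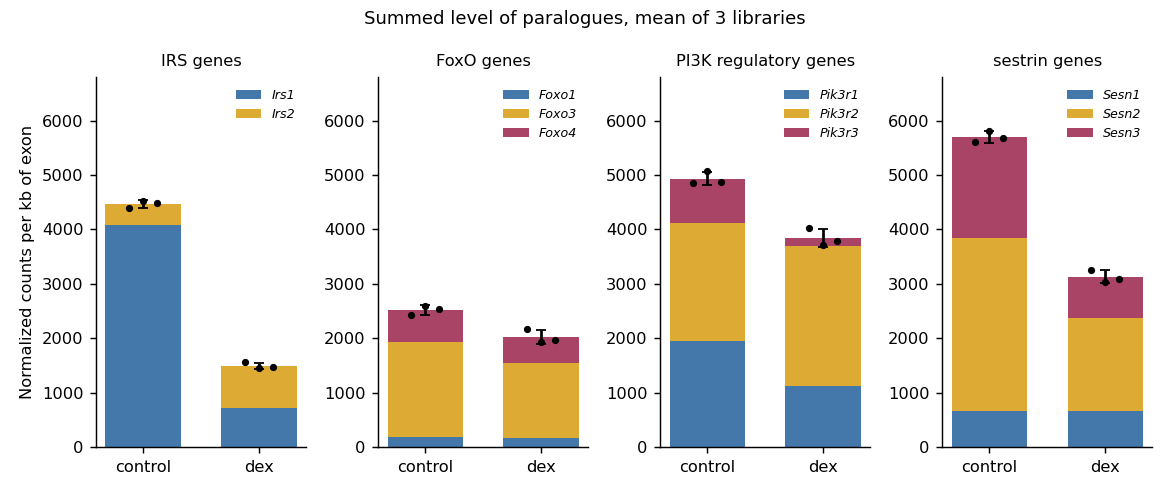
Normalized counts per kb of exon, summed over the genes of 4 families and stacked by gene, as the mean of 3 control and 3 dexamethasone libraries (dots show the sum in each library, bars the SD). The *Irs1* portion shrank from 4074 to 717 per kb and the *Irs2* portion grew from 392 to 774, while the FoxO sum went from 2516 to 2021.

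Per kb of exon, the scale on which genes can be compared, the order of levels changed mainly through *Irs1* and *Irs2*. In the control libraries *Ddit4* (4453 ± 159) and *Irs1* (4074 ± 73.4) led, before *Pik3r1* (1949 ± 4.21), *Foxo3* (1761 ± 67.6), *Sesn1* (663 ± 36.2), *Foxo4* (580 ± 21.7), *Irs2* (392 ± 1.37), *Fbxo32* (354 ± 23.8), *Foxo1* (175 ± 3.07) and *Trim63* (7.73 ± 1.44), all mean ± SD with n = 3. No neighbours in that order overlapped over the 3 libraries. In the dexamethasone libraries *Ddit4* (2533 ± 37.9) led before *Foxo3* (1380 ± 94.1), *Pik3r1* (1128 ± 40.1), *Irs2* (774 ± 35.0), *Irs1* (717 ± 29.2) and *Sesn1* (666 ± 37.0). There the range of *Irs2* overlapped that of *Irs1*, *Irs1* overlapped *Sesn1*, and *Fbxo32* (181 ± 8.52) overlapped *Foxo1* (169 ± 9.57). These are ranges over the libraries, and the order of such neighbours within each library was not tested.

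The genes whose centred log2 profile over the 6 libraries lay nearest to that of *Irs1*, among 11923 candidates, were *Synm*, *Ccdc80* and *Ccn4*, at Euclidean distances of 0.0602, 0.0797 and 0.0831. *Synm* encodes the intermediate filament protein synemin, *Ccdc80* a secreted matrix protein, and *Ccn4* a matricellular WNT target. Their log2 fold changes were -2.51, -2.55 and -2.48. With 6 libraries in 2 groups, the distance reflects mainly the difference between the groups.

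Of 101 other genes of the pathway in 8 lists, 96 had a row and 93 were tested. Of these, 23 were differentially expressed, 14 higher and 9 lower, a share of 24.7% beside 22.3% of all tested genes (11.7% called higher and 10.6% called lower). The split depended on the scaling, with 11 higher and 11 lower at the same total and 10 higher and 13 lower after quantile normalization. With the adjusted p-value alone 79 passed, 44 higher and 35 lower, beside 72.5% of all tested genes, and the median log2 fold change was 0.07.

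At the receptors and adaptors, 4 of 10 tested genes were differentially expressed, 3 higher and 1 lower, beside 22.3% of all tested genes. *Igf1r*, the IGF1 receptor, had 12706 ± 149.7 normalized counts in the control and 27621 ± 1007 in the dexamethasone libraries (SD, n = 3 in each group), 1.12 higher on the log2 scale (limma adjusted p = 3.15e-19). *Ptpn1*, a phosphatase that turns the insulin receptor off, had a log2 fold change of 1.02 and the adaptor *Sh2b2* of 1.46, while *Grb10*, an adaptor that inhibits both receptors, had a log2 fold change of -1.09. After quantile normalization *Igf1r* (0.95) and *Ptpn1* (0.83) were under the cut-off, as was *Ptpn1* at the same total (0.91), with edgeR (0.998) and without dexamethasone replicate 1 (0.98). *Shc1*, an adaptor to the RAS pathway, was at 0.50.

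Of 12 PI3K subunits and phosphoinositide phosphatases, 2 were differentially expressed, both lower (22.3% of all tested genes were, in either direction). *Pik3ip1*, a membrane inhibitor of PI3K, fell from 5587 ± 128 to 621.9 ± 54.0 normalized counts (SD, n = 3 in each group), -3.17 on the log2 scale (limma adjusted p = 6.36e-25), and *Pik3r3* was at -2.45. Of 9 AKT and SGK genes and activators, *Sgk1*, a kinase of the AKT group that glucocorticoids induce, rose from 3596 ± 215 to 68542 ± 590.4 normalized counts (SD, n = 3 in each group), 4.25 higher on the log2 scale (limma adjusted p = 1.26e-29). *Sgk2* rose too, at a low level (6.79 to 17.1 normalized counts, log2 fold change 1.20), but without dexamethasone replicate 2 its limma adjusted p was 0.0511, and with a pseudocount of 5 its log2 fold change was 0.90. *Akt1* was at 0.19, and at -0.0037 after quantile normalization.

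All 18 tested genes of mTORC1 and its regulators passed the adjusted p-value, 8 higher and 10 lower, as did 72.5% of all tested genes. Of the 18, 4 were differentially expressed, beside 22.3% of all tested genes. *Deptor*, an inhibitor within the mTOR complexes, rose by 1.31, and the translation repressors *Eif4ebp1* and *Eif4ebp2* by 1.06 and 1.00, while *Sesn3* was lower. *Eif4ebp2* sat at the cut-off and lost its call in 6 of 17 alternatives (0.84 to 0.994), among them leaving out control replicate 1 or dexamethasone replicate 1, and *Eif4ebp1* was at 0.95 at the same total and 0.87 after quantile normalization. *Rps6*, the ribosomal protein that S6 kinase phosphorylates, was at -0.47. Of 4 tested genes that modify FoxO proteins, *Skp2*, a ubiquitin ligase subunit that acts on FOXO1 and on the cell cycle inhibitor p27, rose by 1.61, and the deubiquitinase *Usp7* was at 0.50.

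Among 14 tested FoxO target genes, 13 passed the adjusted p-value, 4 higher and 9 lower, beside 37.2% higher and 35.2% lower of all tested genes. Of the 14, 2 were differentially expressed, beside 22.3% of all tested genes. *Gadd45a*, a stress-induced growth arrest gene, fell from 2807 ± 119 to 914 ± 25.6 normalized counts (SD, n = 3 in each group), -1.62 on the log2 scale (limma adjusted p = 7.5e-20), and *Cdkn1b*, which encodes p27, had -1.01, and -0.998 without dexamethasone replicate 3. *Txnip* was level, at 0.00 (95% interval -0.08 to 0.08), but at -0.22 after quantile normalization. The textbook targets *Pck1* and *G6pc* had no row in the table.

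Of 18 tested ubiquitin ligase and proteasome genes of atrophy, 4 were differentially expressed, beside 22.3% of all tested genes. *Cblb*, a ligase that in muscle acts on IRS1 protein, rose from 2992 ± 57.6 to 10605 ± 300.4 normalized counts (SD, n = 3 in each group), 1.82 higher on the log2 scale (limma adjusted p = 2.02e-23), and *Trim54* (MuRF3) rose by 2.69. *Fbxo40*, another ligase known to act on IRS1, was at -1.48, and *Asb2* was at -2.05 with few counts (34.9 to 7.71). *Nedd4* was at -0.27. Of 8 tested glucocorticoid and activin signals, 4 were differentially expressed, beside 22.3% of all tested genes. They were *Fkbp5*, *Tsc22d3* (GILZ, 1.65), *Cebpb* (1.30) and the activin antagonist *Fst* (-2.43). *Nr3c1*, the glucocorticoid receptor gene, was at -0.92, and past the cut-off at the same total (-1.04) and after quantile normalization (-1.12).

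**Figure D5:**
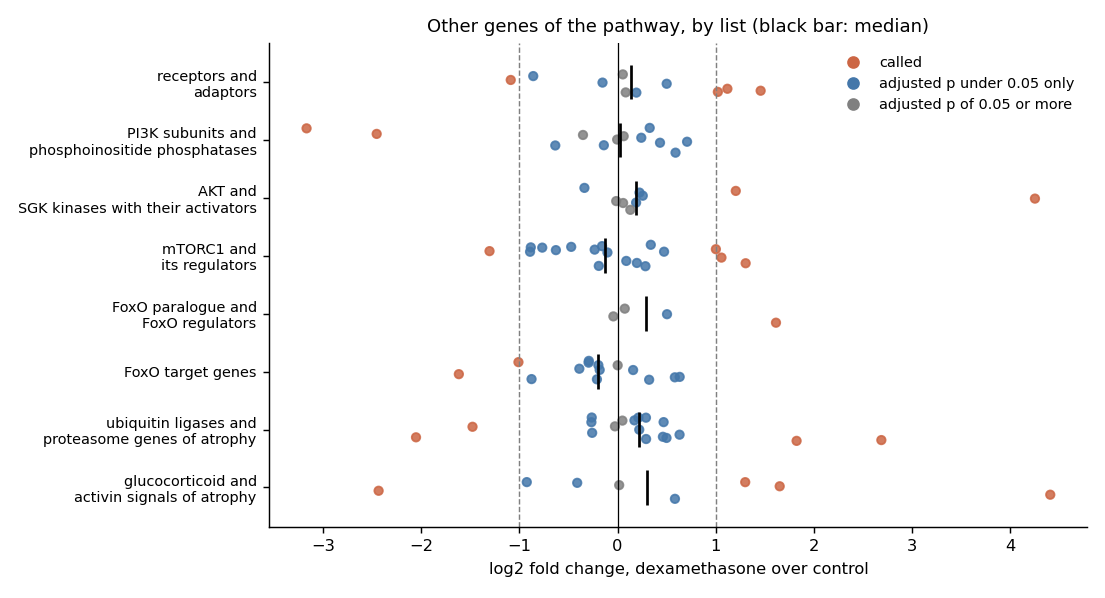
Log2 fold change of the 93 tested pathway genes, 1 point per gene, in 8 lists (vertical scatter within a list carries no meaning), with orange for differentially expressed genes, blue for genes past the adjusted p-value only and grey for the rest. *Fkbp5* (4.41) and *Sgk1* (4.25) lie farthest to the right and *Pik3ip1* (-3.17) farthest to the left, and the medians lie near 0.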

How the data were processed

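RNA was made into libraries with a stranded mRNA kit. Per the submitters' processing notes, STAR 2.7.10a, DESeq2 1.36.0 and GRCm39 were used; the annotation release and strand setting are not given in the sources used here. The deposited signal values are gene counts that the authors divided by a size factor per library (normalized counts). Within a tolerance of 0.01 reads, 100% of values were whole reads, 72596611 to 89910728 per library. No deposited column was left unused. Symbols, exon lengths and overlaps came from GENCODE M21 (28087 of 29616 genes matched), a different build, so no coordinates are given for counts. Genes with a mean of at least 10 (17442) were tested as log2(normalized count + 1) with limma 3.58.1 (R 4.3.3, trended eBayes), with Benjamini-Hochberg adjustment; the added 1 understates changes of low genes. Ratios and sums were tested by 2-sided exact permutation over the libraries. Alternatives used other pseudocounts, filters and scalings, edgeR 4.0.16 and DESeq2 1.42.0 on recovered reads, a block for the replicate number, and each library left out. In simulated data on 17185 genes, limma recovered 194 of 194 changed genes with 1 false call. How well limma recovers changes under the cut-off of 1, the size seen for most of the 10 genes, was not tested. Replicates correlated across genes at r = 0.995 to 0.996 and differed by more than sampling noise (chi-square per degree of freedom 2.75 to 18.7). Named genes were the 10 chosen genes, up to 5 called genes and the most abundant uncalled gene of each pathway list, the 2 most abundant genes of each marker list and the 3 nearest profiles; further paralogues and markers were named after their values were seen. An uncalled gene that this rule names is not reported here. The genes and lists were chosen with earlier results of these data known.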

Additional observations from a re-analysis of the deposited data

How the results depend on the processing

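The number of differentially expressed genes, 3894, was 2170 (1350 higher, 820 lower) with a mean of at least 100, 12645 with the adjusted p-value alone, and 3878 to 3910 with single libraries left out. At the same total, 45.1% of called genes were higher, against 52.3% as reported and 62.2% with a mean of at least 100. Of the 10 genes, 2 were called at the same total and after quantile normalization (*Fbxo32* joined *Irs1*), 7 with the adjusted p-value alone, and 1 to 2 with a library left out: *Fbxo32* joined without control replicate 1 (-1.02) or dexamethasone replicate 1 (-1.003), and *Irs2* without dexamethasone replicate 3 (1.01). Pathway calls were 79 with the adjusted p-value alone and 21 to 23 with a library left out. The summed FoxO level was -0.43 at the same total, and -0.37 to -0.28 with a library left out. *Sesn1* reversed at the same total (-0.11), after quantile normalization (-0.15), with edgeR (-0.018) and DESeq2 (-0.0015), and without a library ranged from -0.038 to 0.0502, below 0 without control replicate 1 (-0.024), control replicate 3 (-0.0065) or dexamethasone replicate 1 (-0.038). *Txnip* reversed at the same total (-0.11), after quantile normalization (-0.22), with edgeR (-0.025) and DESeq2 (-0.00796), and without control replicate 3 (-0.031) or dexamethasone replicate 1 (-0.022), a range of -0.031 to 0.035 with a library left out; *Akt1* reversed after quantile normalization (-0.0037). The cause was not tested. Of 169 values of the 10 genes under the alternatives, 157 kept their direction and were called or uncalled as before. A move across the adjusted p-value cut-off alone, as for *Foxo1* at the same total, was not counted as a change. *Trim63* was untested with a mean of at least 100. Same-numbered libraries did not deviate together (r = -0.1, -0.105 and -0.02). Whether equal numbers pair samples is not given in the sources used here, and these correlations cannot settle it. The fit with a replicate block called 3897 genes, 1 of the 10 genes and 23 pathway genes. Low counts limit *Trim63*, and 3 libraries per group limit the exact tests.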

Other observations

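Other families of the pathway were summed per kb of exon after their values were seen. The AKT genes went from 7609 ± 93.5 to 8236 ± 408 normalized counts per kb (SD, n = 3 in each group), with the share of *Akt1* at 65.1% and 68.6% and that of *Akt2* at 19.3% and 14.1%. *Ddit4* and its paralogue *Ddit4l* went from 4747 ± 165 to 2693 ± 27.6, and *Ddit4* held 93.8% of that sum in the control and 94.1% in the dexamethasone libraries. Neither pair of groups overlapped (exact permutation p = 0.1, the smallest possible for 3 against 3 libraries). *Klf15*, a glucocorticoid target of muscle, had a mean of 10.9 ± 2.54 normalized counts in the control and 6.66 ± 3.16 in the dexamethasone libraries and was under the filter. *Foxo6* and *Irs3* were lower still, at 1.17 and 4.34 in the control and 2.73 and 1.48 in the dexamethasone libraries, also under the filter.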
